A study of Homo sapiens with 6 samples.

Results

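The axon guidance ligands and receptors are 72 genes chosen by their symbols, with earlier results of these data known. They comprise the semaphorin, plexin, neuropilin, ephrin-A, ephrin-B, EPHA, EPHB, netrin, UNC5, slit and roundabout families together with DCC and NEO1. A named probe set was present for 47 of the 72, out of 14883 genes with a named probe set, and each of the 47 had 1. These were 17 ligands (5 ephrins of class A, 3 of class B, 6 netrins and netrin-Gs and 3 slits) and 30 receptors (9 plexins, both neuropilins, 13 EPH receptors and 6 netrin receptors). The 20 semaphorins, the 4 roundabout genes and EPHB2 were not analysed here, so the semaphorin and slit pathways are described from 1 side only.

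Growing axons and migrating neural crest cells read these proteins as directional signals. Semaphorins bind plexins, with neuropilins as co-receptors for the secreted class, ephrins bind EPH receptor tyrosine kinases on the neighbouring cell and can signal backwards into their own cell, netrins bind DCC, neogenin and the UNC5 receptors, and slits bind roundabout receptors. Neuroblastoma arises from the sympathetic branch of the neural crest, whose migration and axon outgrowth use these cues, and UNC5 receptors and DCC are also known as dependence receptors, which can promote death of a cell when their ligand is absent.

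All samples were cells of SK-N-BE(2), an established line from a human neuroblastoma with amplified MYCN, grown in Iscove's medium with serum and a supplement of insulin, transferrin and selenium. One group was infected with a pLKO lentivirus that carries a non-silencing control hairpin (NSC, n = 3), and the other with a pLKO lentivirus that carries a hairpin against BRG1 (shBRG1, n = 3), so that both groups were infected and both expressed a hairpin. BRG1 is the ATPase of SWI/SNF chromatin remodelling complexes, and the labels name 1 vector per group without saying how many hairpin sequences it stands for. At 48 h after infection total RNA was extracted, and each sample's 200 ng input went onto 1 Affymetrix array. SMARCA4, the gene of BRG1, had 0 named probe sets, so the depletion itself was not analysed here and the groups rest on their labels. The labels speak of triplicates without saying that they were separate cultures, so the p-values reflect only how these samples vary, and that variation may be technical.

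Values are log2 levels per probe set, in which 1 unit is a doubling, and the medians of the 6 arrays lay between 3.77 and 3.84. Of the markers of the sympathetic (adrenergic) neuroblastoma state, 8 of 10 were measured, 5 were lower and 0 higher in shBRG1, and the log2 of their summed linear level was 12.83 to 12.87 in NSC and 12.62 to 12.65 in shBRG1. The same sum was 10.39 to 10.55 in NSC against 10.15 to 10.31 in shBRG1 for mesenchymal markers (8 of 10 measured, 1 higher and 2 lower) and 6.34 to 6.40 against 6.01 to 6.14 for Schwann cell markers (4 of 8 measured, 0 higher and 1 lower). Such sums are led by the brightest genes, among mesenchymal markers SNAI2 (mean 9.80 in NSC and 9.33 in shBRG1). The mesenchymal marker that was higher, FN1, rose by 1.44. Of all 14883 genes, 9.78% were higher and 7.19% lower at the same threshold (limma, adjusted p under 0.05). Among genes at or above the median gene level of 5.09 these shares were 17.4% and 11.9%. All 8 adrenergic, 4 of 8 mesenchymal and 1 of 4 Schwann cell markers lay at or above that level. Changes were above 0 in 3 of 8 adrenergic, 4 of 8 mesenchymal and 0 of 4 Schwann cell markers. The part of these shifts in the results below was not tested, and in bulk RNA fewer cells of a type and less RNA per cell cannot be told apart.

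In cells with the BRG1 hairpin, 10 of the 47 guidance genes were lower and 3 were higher (limma, adjusted p under 0.05 over all 14883 genes). The genes that fell were the plexins PLXNA1, PLXNA2 and PLXNA3, the neuropilin NRP1, the ephrin EFNB2, the EPH receptors EPHA7 and EPHB3, the netrin receptors UNC5A and UNC5C, and SLIT3. Those that rose were NRP2, EPHA5 and the netrin-G gene NTNG1. All 13 changes were under 2-fold, from 1.18-fold (UNC5C) to 1.72-fold (UNC5A). Among all genes 17.0% passed the same threshold, 9.78% higher and 7.19% lower, and among the members the shares were 27.7%, 6.38% and 21.3%. The median change was -0.05 over the members and 0.01 over all genes. Leaving out any 1 of the 6 arrays left 5 or 6 members lower (10.6% to 12.8%, against 4.66% to 5.77% of all genes), and 2 higher without shBRG1 replicate 1 or 3 higher without another array.

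**Figure D1:**
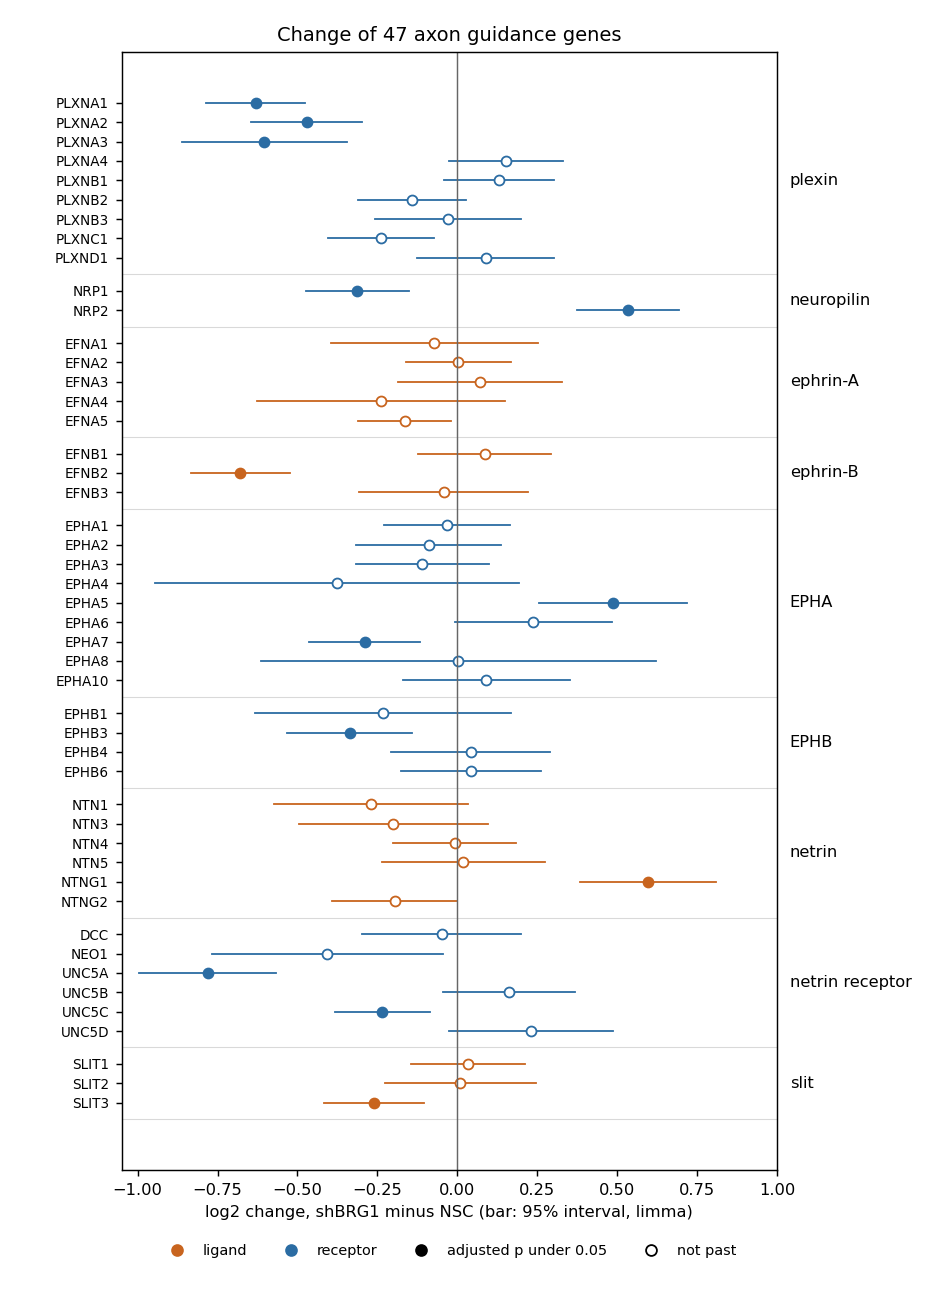
Log2 change (shBRG1 minus NSC) of the 47 measured guidance genes on the horizontal axis, by family, with unadjusted 95% intervals from limma; ligands are orange, receptors blue, and filled points passed an adjusted p of 0.05. The filled points to the left include PLXNA1 to PLXNA3, EFNB2 and UNC5A, and those to the right are NRP2, EPHA5 and NTNG1.

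Plexins are the signalling receptors for semaphorins, and the class A plexins pair with neuropilins to receive the secreted semaphorins. PLXNA1 stood at 8.25, 8.24 and 8.23 in the 3 NSC arrays and at 7.54, 7.65 and 7.65 in the 3 shBRG1 arrays. All shBRG1 values lay below all NSC values, a 1.55-fold lower level (log2 change -0.63, SE 0.07, adjusted p = 0.0014). PLXNA3 had 6.71, 6.62 and 6.79 in NSC and 6.12, 6.30 and 5.89 in shBRG1. It was 1.52-fold lower (-0.60, SE 0.11, adjusted p = 0.010), with the widest spread among its shBRG1 arrays of the 3 class A genes that fell. PLXNA2 had 8.58, 8.66 and 8.71 in NSC and 8.18, 8.26 and 8.10 in shBRG1. It was 1.39-fold lower (-0.47, SE 0.07, adjusted p = 0.0059), again without overlap between the groups.

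The remaining class A gene, PLXNA4, did not pass. Its values were 8.90, 8.73 and 8.93 in NSC and 8.97, 9.03 and 9.03 in shBRG1, a change of 0.15 with a 95% interval of -0.03 to 0.33 (adjusted p = 0.23). Of the other plexins, PLXNB2 had a change of -0.14, PLXNB3 of -0.03, PLXNB1 of 0.13 and PLXND1 of 0.09, with adjusted p between 0.24 and 0.88. PLXNC1, the receptor for the membrane-anchored semaphorin of class 7, was 3.81, 3.70 and 3.86 in NSC and 3.53, 3.59 and 3.53 in shBRG1. It had a change of -0.24 (adjusted p = 0.060) and passed with array quality weights (adjusted p = 0.046). In 7 of the 9 plexins the groups did not overlap. The same held for 20 of the 47 members (42.6%) and for 35.5% of all genes. It held for 54.6% of all genes at or above the median gene level, where 6 of the 9 plexins lay.

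To set the class A genes beside each other, the 250 bases before the transcription start in RefSeq (GRCh38.p14) are shown 5′ to 3′ on the gene's strand, with capitals at each GC box, the Sp1 family motif GGGCGG or its reverse complement.
PLXNA1, chr3:126982865-126983114, plus strand: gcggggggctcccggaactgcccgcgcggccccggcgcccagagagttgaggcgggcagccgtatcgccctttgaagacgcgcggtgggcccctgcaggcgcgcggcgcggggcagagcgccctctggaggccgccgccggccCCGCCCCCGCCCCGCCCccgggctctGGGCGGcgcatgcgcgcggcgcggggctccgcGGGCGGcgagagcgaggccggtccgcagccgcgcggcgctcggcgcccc
PLXNA2, chr1:208244385-208244634, minus strand: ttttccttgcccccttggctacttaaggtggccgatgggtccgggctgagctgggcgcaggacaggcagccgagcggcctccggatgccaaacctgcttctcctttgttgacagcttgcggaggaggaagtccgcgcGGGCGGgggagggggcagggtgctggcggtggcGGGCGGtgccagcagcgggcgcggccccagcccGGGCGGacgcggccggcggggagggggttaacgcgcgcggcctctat
PLXNA3, chrX:154458031-154458280, plus strand: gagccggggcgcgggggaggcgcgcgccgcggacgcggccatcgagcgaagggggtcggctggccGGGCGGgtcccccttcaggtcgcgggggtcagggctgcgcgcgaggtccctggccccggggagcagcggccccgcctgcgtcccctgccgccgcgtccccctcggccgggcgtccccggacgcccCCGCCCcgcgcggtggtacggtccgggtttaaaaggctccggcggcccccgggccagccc
PLXNA4, chr7:132576471-132576720, minus strand: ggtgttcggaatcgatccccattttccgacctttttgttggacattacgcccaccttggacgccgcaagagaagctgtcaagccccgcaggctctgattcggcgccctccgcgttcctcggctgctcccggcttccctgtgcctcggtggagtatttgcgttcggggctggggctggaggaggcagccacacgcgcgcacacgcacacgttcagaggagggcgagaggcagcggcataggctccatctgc
The windows of PLXNA1, PLXNA2 and PLXNA3 held 5, 3 and 2 GC boxes, with matches that overlap each counted, and that of PLXNA4 held 0. They contained 46, 27, 41 and 23 CpG dinucleotides in the same order, against a median of 16 in the windows of protein-coding genes. These are descriptions of 4 windows, and no binding was measured. Among other members, the windows of UNC5C and SLIT3, which fell, held 0 GC boxes, and that of NRP2, which rose, held 3. With a window, 10 of 12 genes past the threshold and 34 of all 39 members had a GC box.

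Neuropilins lack an enzymatic domain of their own and present secreted semaphorins and forms of VEGF to plexins and VEGF receptors. NRP1 and NRP2 moved in opposite directions. NRP1 was 9.45, 9.51 and 9.60 in NSC and 9.21, 9.24 and 9.18 in shBRG1, and NRP2 was 7.10, 7.09 and 7.14 in NSC and 7.68, 7.68 and 7.57 in shBRG1. Neither gene showed overlap between the groups. NRP2 was 1.45-fold higher (0.53, SE 0.07, adjusted p = 0.0026) and NRP1 1.24-fold lower (-0.31, SE 0.07, adjusted p = 0.021). Dropping any array but NSC replicate 1 ended the call of NRP1 (adjusted p 0.051 to 0.073), whereas that of NRP2 held without each array in turn. The NRP2 window before the start, shown because NRP2 is the receptor with the lowest adjusted p among those that rose, held 3 GC boxes, in capitals as above.
NRP2, chr2:205682251-205682500, plus strand: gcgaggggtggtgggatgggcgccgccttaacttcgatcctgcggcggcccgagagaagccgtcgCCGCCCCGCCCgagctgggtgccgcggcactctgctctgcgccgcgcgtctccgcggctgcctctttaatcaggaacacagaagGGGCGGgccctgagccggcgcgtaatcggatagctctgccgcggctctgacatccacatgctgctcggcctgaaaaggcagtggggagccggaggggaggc

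**Figure D2:**
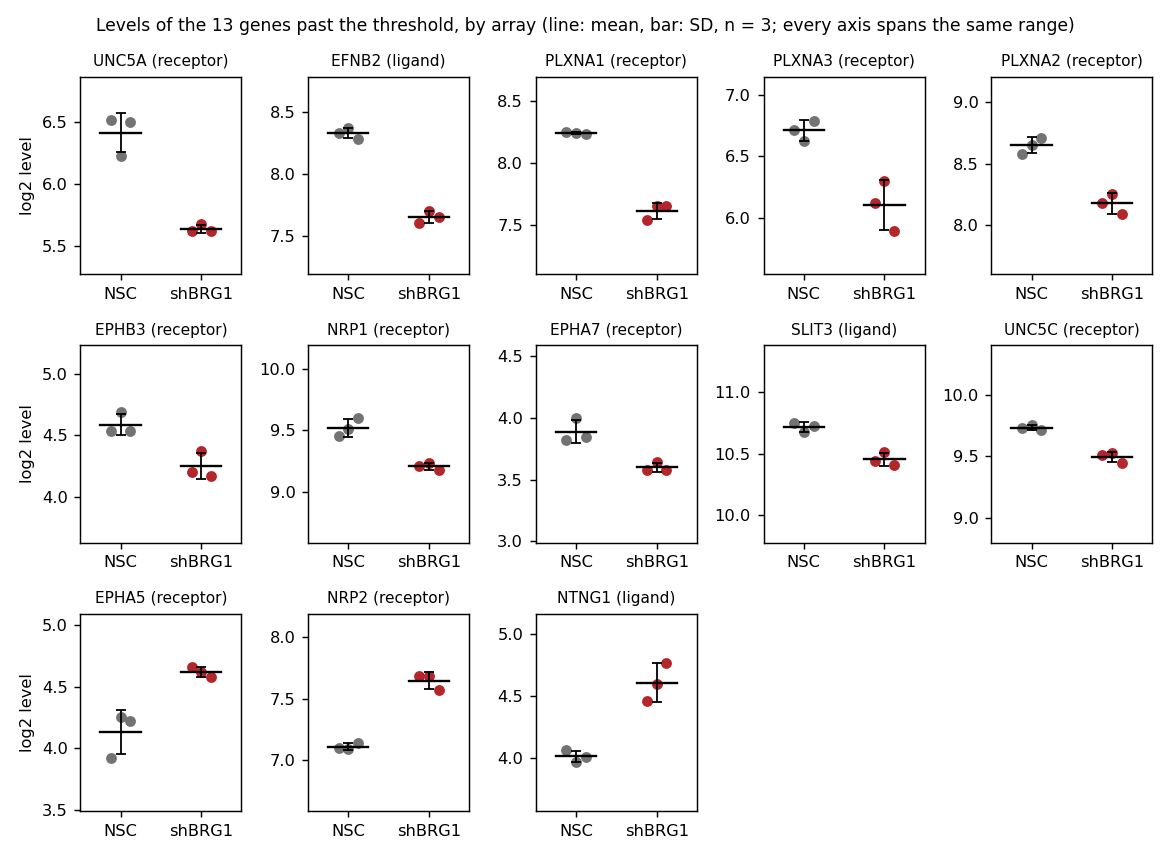
Log2 level of each of the 13 guidance genes past the threshold in the 3 NSC (grey) and 3 shBRG1 (red) arrays, with the mean (line) and SD (bar) of each group; each vertical axis spans the same log2 range. In all 13 panels the groups do not overlap, which the selection by adjusted p favours, and the same holds for 35.5% of all genes. The shifts run from 0.23 downwards (UNC5C) to 0.78 downwards (UNC5A) and up to 0.60 upwards (NTNG1).

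Ephrins of class B span the membrane, and EFNB2 is known for its part in neural crest migration and in arterial vessels. EFNB2 was 8.33, 8.37 and 8.29 in NSC and 7.60, 7.70 and 7.65 in shBRG1. The shBRG1 arrays were lower by more than 0.5 in every pairing of arrays, and the gene was 1.60-fold lower (-0.68, SE 0.07, adjusted p = 0.0010, the lowest of the 47 members). The other class B ephrins did not pass. EFNB1 was 7.25, 7.33 and 7.18 in NSC and 7.18, 7.42 and 7.43 in shBRG1 (change 0.09, 95% interval -0.12 to 0.29, adjusted p = 0.59), and EFNB3 had a change of -0.04 (-0.31 to 0.22, adjusted p = 0.85). The groups overlapped for both. The EFNB2 window, shown because this ligand led the members by adjusted p, held 3 GC boxes, and it also held 1 TATA box, TATAAA or its reverse complement, in lower case.
EFNB2, chr13:106535663-106535912, minus strand: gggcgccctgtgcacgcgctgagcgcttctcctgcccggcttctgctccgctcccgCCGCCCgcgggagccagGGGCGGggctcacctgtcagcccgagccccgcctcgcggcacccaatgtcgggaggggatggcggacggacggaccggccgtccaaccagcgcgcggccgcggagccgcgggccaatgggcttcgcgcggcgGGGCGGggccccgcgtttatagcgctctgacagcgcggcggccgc

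Class A ephrins are held to the membrane by a lipid anchor, and 0 of 5 passed, beside 17.0% of all genes. Of the 5, 4 lay below the median gene level, where only 4.69% of all genes passed. EFNA5, which guides topographic mapping of axons, came closest, with 7.55, 7.60 and 7.59 in NSC and 7.43, 7.39 and 7.43 in shBRG1. Its groups did not overlap, but its change of -0.16 (SE 0.06) had an adjusted p of 0.12. It passed after cyclic loess (-0.23, adjusted p = 0.049) and when genes dimmer than the median gene were left out (adjusted p = 0.034). With those genes left out, 43.0% of all genes tested passed. EFNA1, EFNA2, EFNA3 and EFNA4 had changes from -0.24 to 0.07 with adjusted p of 0.40 or above.

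EPH receptors are the largest family of receptor tyrosine kinases, and of the 13 measured, 1 rose, 2 fell and 10 did not pass. Their probe sets were dim, 12 of 13 lying below the median gene level of 5.09, where changes can be understated. Past the threshold were 23.1% of the 13, beside 17.0% of all genes and 4.69% of all genes below that level. EPHA5, a neuronal receptor for class A ephrins, was 3.92, 4.25 and 4.22 in NSC and 4.66, 4.62 and 4.58 in shBRG1. Every shBRG1 value was higher than every NSC value, and the gene was 1.40-fold higher (0.49, SE 0.10, adjusted p = 0.015), a call lost only without shBRG1 replicate 1 among the 6 arrays (adjusted p = 0.055). EPHB3, a class B receptor, was 4.53, 4.69 and 4.54 in NSC and 4.21, 4.37 and 4.17 in shBRG1. EPHB3 was lower by 1.26-fold (-0.34, SE 0.08, adjusted p = 0.032). Dropping any array but shBRG1 replicate 2 ended the call (0.062 to 0.10), as did trend and robust options (0.054). EPHA7 was 3.83, 4.001 and 3.85 in NSC and 3.58, 3.64 and 3.58 in shBRG1. EPHA7 was lower by 1.22-fold (-0.29, SE 0.07, adjusted p = 0.036). Dropping any of the 6 arrays ended the call (0.058 to 0.10), as did centring (0.052) and trend and robust options (0.087).

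The other EPH receptors gave no call in any alternative run. EPHA2 had a change of -0.09 (95% interval -0.32 to 0.14), EPHB4 of 0.04 (-0.21 to 0.29) and EPHB6, a kinase-dead member, of 0.04 (-0.18 to 0.26). EPHA4 had the widest group, at 4.49, 3.77 and 3.39 in NSC and 3.56, 3.46 and 3.51 in shBRG1. NSC replicate 1 stood apart there, and the change was -0.38 (SE 0.24, adjusted p = 0.36). EPHA6 had a change of 0.24 (adjusted p = 0.17), EPHA10 of 0.09, EPHA1 of -0.03 and EPHA3 of -0.11. EPHA8 varied widely within both groups (SD 0.47 in NSC and 0.40 in shBRG1), with a change of 0.00. EPHB1, the 1 EPH receptor above the median gene level, had a change of -0.23 (adjusted p = 0.42).

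Netrins are laminin-related cues, and netrin-Gs are their membrane-anchored relatives, which bind partner proteins at synapses and not the classical netrin receptors. NTNG1 was 4.06, 3.97 and 4.01 in NSC and 4.46, 4.60 and 4.77 in shBRG1. The groups did not overlap, and the gene was 1.51-fold higher (0.60, SE 0.09, adjusted p = 0.0052). Its NSC values lay near the array medians of 3.77 to 3.84. NTNG2 was 5.07, 4.81 and 4.89 in NSC and 4.72, 4.69 and 4.77 in shBRG1, a change of -0.20 (adjusted p = 0.17). NTN1, the main secreted netrin of the nervous system, was dim (3.54 ± 0.11 in NSC and 3.27 ± 0.25 in shBRG1, SD, n = 3), with a change of -0.27 (95% interval -0.57 to 0.03, adjusted p = 0.21). NTN3, NTN4 and NTN5 had changes from -0.20 to 0.02 and adjusted p of 0.35 or above.

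Among the netrin receptors, UNC5A had the largest change of all 47 members. UNC5A was 6.52, 6.23 and 6.50 in NSC and 5.62, 5.68 and 5.62 in shBRG1. The 3 shBRG1 arrays lay close together and well below the NSC arrays, a 1.72-fold lower level (-0.78, SE 0.09, adjusted p = 0.0020). UNC5C was 9.73, 9.75 and 9.71 in NSC and 9.51, 9.53 and 9.45 in shBRG1. Its spread was small, so a 1.18-fold lower level passed (-0.23, SE 0.06, adjusted p = 0.044), but dropping any of the 6 arrays ended the call (0.080 to 0.14), as did centring (0.085). UNC5B, a paralogue known to be induced by p53, was 9.37, 9.22 and 9.49 in NSC and 9.44, 9.58 and 9.54 in shBRG1. These groups overlapped, with a change of 0.16 (95% interval -0.04 to 0.37, adjusted p = 0.27).

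UNC5D (0.23, -0.03 to 0.49, adjusted p = 0.21) and DCC (-0.05, -0.30 to 0.20, adjusted p = 0.81) were dim in all 6 arrays, at 3.57 or below. NEO1, which encodes neogenin, was 4.42, 4.03 and 4.07 in NSC and 4.02, 3.79 and 3.49 in shBRG1. The groups were separated by 0.01, and the change of -0.41 (SE 0.16) had an adjusted p of 0.12. The UNC5A window, shown for the largest change, held 4 GC boxes.
UNC5A, chr5:176810309-176810558, plus strand: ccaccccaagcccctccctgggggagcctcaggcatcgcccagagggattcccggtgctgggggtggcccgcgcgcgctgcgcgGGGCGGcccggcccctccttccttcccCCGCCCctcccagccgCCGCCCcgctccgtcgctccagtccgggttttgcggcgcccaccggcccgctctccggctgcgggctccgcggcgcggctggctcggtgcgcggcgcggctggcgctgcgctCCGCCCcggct

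Slits are secreted repellents. SLIT3 was 10.75, 10.67 and 10.72 in NSC and 10.44, 10.51 and 10.41 in shBRG1. The groups did not overlap, and SLIT3 was 1.20-fold lower (-0.26, SE 0.07, adjusted p = 0.036), and dropping any of the 6 arrays ended the call (0.056 to 0.11), as did centring (0.074). SLIT1 (0.03, adjusted p = 0.82) and SLIT2 (0.01, 95% interval -0.23 to 0.25, adjusted p = 0.97) were dim, and their groups overlapped.

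Ligands and receptors were close in their median change, and a larger share of the receptors passed. Of 17 ligands 1 rose and 2 fell (17.6% past the threshold), and of 30 receptors 2 rose and 8 fell (33.3%), beside 17.0% of all genes. The median change was -0.04 for ligands and -0.07 for receptors, and the difference of these medians, 0.03, was below the SD of 0.06 that it had across the 3 shBRG1 arrays. Within single shBRG1 arrays the difference was 0.06, 0.06 and -0.05, so its sign was not constant. At or above the median gene level, where 29.2% of all genes passed, 2 of 5 ligands and 7 of 12 receptors did. No test of ligands against receptors was made.

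Within 10 chosen pairs, related genes on the same array shifted against each other. The pairs were chosen after the values were seen, and the differences are given as descriptions without a test. Each pair holds at least 1 gene past the threshold, so separate groups were largely fixed by that choice. NRP2 minus NRP1 was -2.36, -2.42 and -2.46 in NSC and -1.53, -1.55 and -1.61 in shBRG1, a shift of 0.85 between the means. UNC5B minus UNC5A was 2.85, 2.99 and 2.98 in NSC and 3.82, 3.90 and 3.92 in shBRG1, a shift of 0.94. In both pairs the groups were far apart compared with the spread within them. The shift was 0.78 for PLXNA4 minus PLXNA1, 0.76 for EFNB1 minus EFNB2 and -0.79 for NTNG2 minus NTNG1, again with no overlap between the groups. Of 10 pairs computed the other 5 did not overlap either, with shifts of 0.55 for UNC5C minus UNC5A, 0.62 for PLXNA4 minus PLXNA2, 0.64 for EFNB3 minus EFNB2, 0.76 for PLXNA4 minus PLXNA3 and -0.78 for EPHA7 minus EPHA5. Such within-array differences are not altered by a shift of a whole array, and they show unequal change, not that 1 gene of a pair was constant.

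**Figure D3:**
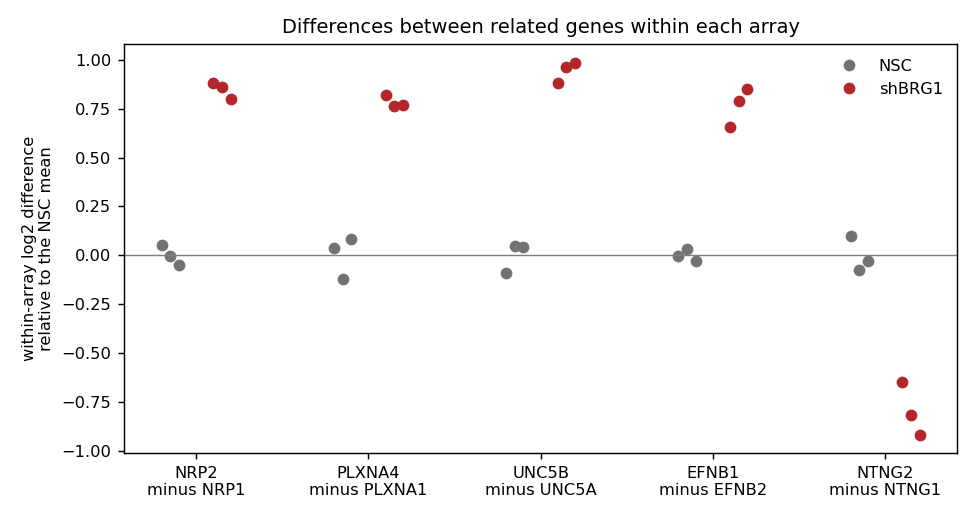
Log2 difference between 2 related genes within each array, relative to the NSC mean of that difference, in 5 of the 10 pairs, for 3 NSC (grey) and 3 shBRG1 (red) arrays. The shBRG1 points lie apart from the NSC points in all 5 pairs, by a mean of 0.76 to 0.94 upwards in 4 pairs and 0.79 downwards for NTNG2 minus NTNG1. The pairs were chosen after the values were seen and each holds a gene past the threshold, which favours such separation.

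The genes that act with these receptors were followed in 7 lists, of which 152 of 218 genes were measured. In all, 14 were higher and 27 lower, or 27.0% past the threshold, beside 17.0% of all genes. The lists were chosen with earlier results of these data known, so their shares are descriptions only. Of the 152, 106 were at or above the median gene level, where 29.2% of all genes passed. By list, in the order below, they were 15 of 19, 15 of 23, 22 of 24, 10 of 15, 14 of 27, 11 of 21 and 19 of 23. The total of 41 became 25 to 31 without 1 of the arrays, when 10.8% to 12.4% of all genes passed, the 14 became 7 to 9 and the 27 became 18 to 23.

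Semaphorin and plexin effectors numbered 19, of which 1 was higher and 5 lower. These are 31.6%, beside 17.0% of all genes and 29.2% of those at or above the median gene level. Without 1 array, 3 to 5 were lower and 0 higher. RND3 and RND2, whose proteins bind plexins, fell by 0.73 and 0.56 on the log2 scale (adjusted p = 8.1e-04 and 0.0021). DPYSL4 and DPYSL3, collapsin response mediator proteins that link semaphorin receptors to microtubules, fell by 0.72 and 0.40 (adjusted p = 0.0020 and 0.021). Dropping NSC replicate 2, shBRG1 replicate 1 or shBRG1 replicate 3 ended the call of DPYSL3 (highest adjusted p 0.073).

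Of 23 effectors of ephrins and EPH receptors, 1 was higher and 3 lower, or 17.4%, near the 17.0% of all genes. Without any 1 array, 3 were lower and 0 higher. The kinase SRC (-0.60, adjusted p = 0.0053), the PDZ adaptor SDCBP (-0.74, adjusted p = 0.0053) and RGS3, which binds class B ephrins (-0.48, adjusted p = 0.0059), fell. The focal adhesion kinase PTK2 was higher by 0.24 (adjusted p = 0.041), a call that ended when any of the 6 arrays was dropped and after cyclic loess (highest adjusted p among these 0.11).

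Of 24 genes of slit and roundabout signalling and the heparan sulphate that slits need, 4 were higher and 5 lower (2 higher and 4 or 5 lower without 1 array). These are 37.5%, beside 17.0% of all genes and 29.2% of those at or above the median gene level. The chemokine receptor CXCR4, whose signalling slits can dampen, stood at 5.86 ± 0.34 with NSC and at 4.72 ± 0.29 with shBRG1 (SD, n = 3), a 2.21-fold lower level (-1.14, SE 0.20, adjusted p = 0.0085). The heparan sulphate proteoglycan SDC4 (-0.86, adjusted p = 0.0016) and the sulphotransferase HS6ST1 (-0.72, adjusted p = 0.0026) fell, whereas NDST1, another heparan sulphate sulphotransferase, rose (0.55, adjusted p = 0.0025).

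Netrin effectors gave 2 higher and 1 lower of 15, or 20.0% beside 17.0% of all genes (1 or 2 higher and 1 lower without 1 array). DAPK1, a death-associated kinase known to act downstream of UNC5 receptors, stood at 7.66 ± 0.10 with NSC and fell by 0.66 with shBRG1 (SE 0.08, adjusted p = 0.0019). PICK1, a PDZ protein that binds UNC5A, was higher by 0.42 (adjusted p = 0.012), a call lost when the probe sets of a gene were averaged (0.060). LRIG2, a membrane protein that binds neogenin, was higher by 0.29 (adjusted p = 0.025), which ended when any array but NSC replicate 1 was dropped (highest adjusted p 0.080).

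Of 27 other cues and receptors, 3 were higher and 4 lower, or 25.9% beside 17.0% of all genes (2 or 3 and 3 or 4 without 1 array). The latrophilins ADGRL2 (0.70, adjusted p = 8.1e-04) and ADGRL1 (0.56, adjusted p = 0.0030), adhesion receptors of growth cones and synapses, rose. RET, the receptor for the GDNF family (-0.59, adjusted p = 0.0017), and VEGFA, whose receptors work with neuropilins (-0.51, adjusted p = 0.0045), fell.

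Axonal adhesion molecules gave 1 higher and 3 lower of 21, or 19.0%, near the 17.0% of all genes. Without 1 array, 1 was higher and 1 or 2 lower. The contactin CNTN4 rose 1.79-fold (0.84, SE 0.11, adjusted p = 0.0024) and neurofascin, NFASC, fell (-0.66, adjusted p = 0.0018). The immunoglobulin family members CADM1 (-0.31, adjusted p = 0.021) and NRCAM (-0.26, adjusted p = 0.041) also fell. Dropping any array but shBRG1 replicate 3 ended the call of CADM1 (highest 0.063), and dropping any of the 6 arrays, or centring, that of NRCAM (highest 0.13).

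Of 23 genes of the growth cone cytoskeleton, 2 were higher and 6 lower. These are 34.8%, beside 17.0% of all genes and 29.2% of those at or above the median gene level. Without 1 array, 1 or 2 were higher and 2 to 4 lower. The axonal microtubule protein MAP1B fell by 0.62 (SE 0.07, adjusted p = 0.0014) from an NSC mean of 11.31 ± 0.06 (SD, n = 3), as did the cofilin phosphatase SSH2 (-0.37, adjusted p = 0.0078). DCLK1, a doublecortin-like kinase (-0.57, adjusted p = 0.013), lost its call without shBRG1 replicate 1 or 3 (highest adjusted p 0.051). CLASP2, which stabilises microtubule ends, was higher by 0.36 (adjusted p = 0.0088).

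**Figure D4:**
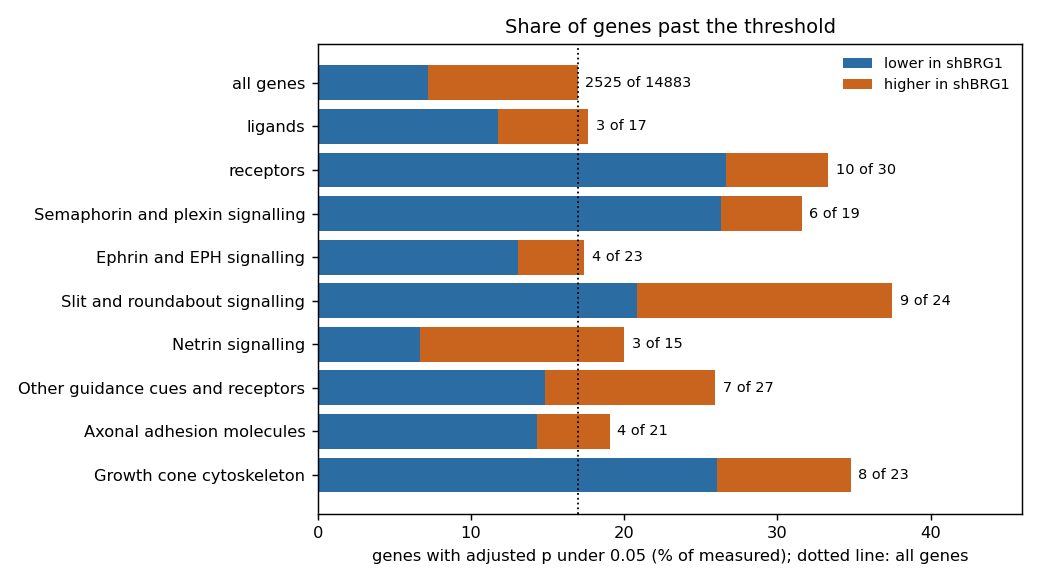
Share of measured genes with an adjusted p under 0.05 (horizontal axis, percent), lower (blue) and higher (orange) in shBRG1, for all genes, ligands, receptors and 7 lists of pathway genes, with counts beside the bars. The dotted line is the 17.0% of all genes, and the list shares run from 17.4% (ephrin and EPH signalling) to 37.5% (slit and roundabout signalling). The lists differ in level, and 29.2% of all genes at or above the median gene level passed.

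Promoter windows of 250 bases were present for 39 of the 47 genes, some with several starts, in 49 windows. A GC box, GGGCGG on either strand, was present in 40 of the 49 windows (81.6%), in 53.7% of the windows of protein-coding genes and in 42.6% of all 35116 windows. By gene, 34 of 39 had one, and 10 of the 12 genes past the threshold with a window. The 49 windows also held more CpG dinucleotides, a median of 20 against 16 in the windows of protein-coding genes. The E-box CACGTG, the core motif of MYC and MYCN, was present only in the window of EPHA8 among the members. That is 2.0% of the 49 windows, against 7.4% of protein-coding and 6.3% of all windows. The AP-1 motif TGANTCA was found only in a window of PLXNC1 (2.0%, against 5.4% of protein-coding and 6.6% of all windows). TATAAA was found in windows of EFNB2 and EPHA7 (4.1%, against 9.0% and 10.7%). A match is a description of letters, and a window without one says nothing of the factor.

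The 13 calls differed in how far they depended on the settings. EFNB2, PLXNA1, UNC5A, NRP2, NTNG1, PLXNA2 and PLXNA3 passed the threshold of 0.05 in every alternative in which they were tested, with highest adjusted p from 0.0086 (EFNB2) to 0.037 (PLXNA3). The other 6 (EPHA5, NRP1, EPHB3, SLIT3, EPHA7 and UNC5C) lost it in at least 1. At the stricter adjusted p of 0.01, 6 of the 13 passed, namely the 7 genes without PLXNA3.

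**Figure D5:**
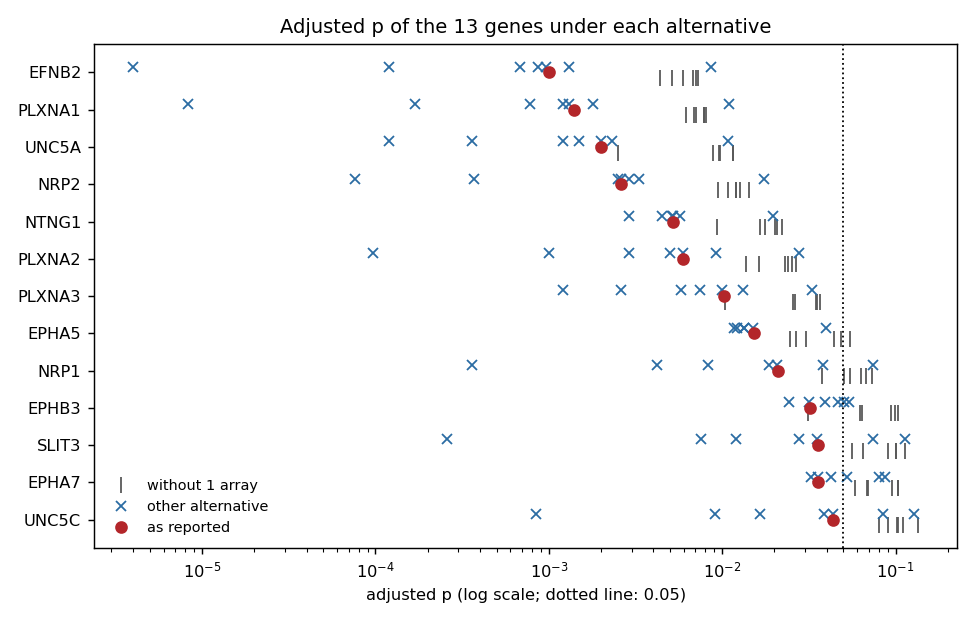
Adjusted p (log axis) of the 13 guidance genes past the threshold, as reported (red), without each array in turn (grey bars) and under the other alternatives (blue crosses), with a dotted line at 0.05. The upper 7 genes stay left of the line throughout, the highest value among them being 0.037 for PLXNA3.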

How the data were processed

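Gene expression of 6 samples, 3 NSC and 3 shBRG1, was measured on 1 single-colour Affymetrix array each. The values deposited by the authors are log2 levels of probe sets. The submitters' processing notes name RMA, limma 3.19, oligo 1.27 and R 3.1.0. Because RMA equalises the distributions of the arrays, a shift shared by all genes would be hidden, and after its background step the changes of dim probe sets can be understated. For the probes the genome build is not given in the sources, and batches, scan days and detection calls were not used. The log2 scale was inferred from the range, 1.19 to 13.82.

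Of 52299 probe sets, 15828 carried 1 symbol, 0 several and 36471 none in the platform annotation. All 15828 were matched by gene identifier to the GRCh38.p14 gene table, which changed 0 symbols. The brightest probe set of each gene by the mean of 6 arrays was kept, leaving 14883 genes. Antisense genes, SLITRK genes and UNC5CL are not members.

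In R 4.3.3, limma 3.58.1 was fitted with lmFit and eBayes (two-sided, no covariates), with Benjamini-Hochberg adjustment over all 14883 genes and a threshold of 0.05. Changes are shBRG1 minus NSC on the log2 scale. The number of arrays limits the precision, with a median SE of 0.09, and an exact permutation of 3 against 3 cannot go below p = 0.1. The fit was also tested on simulated data. The members, marker and pathway lists and tests were chosen with earlier results of these data known. Named are all members past the threshold, 16 members fixed by name where measured, and up to 4 genes of each pathway list with the smallest p. Of these 16, SEMA3A, SEMA3F and ROBO1 were not analysed here. EPHA4, EFNA5, PLXNC1 and other unlisted members are named to complete their families. Alternatives were centring, cyclic loess, leaving out dim genes, averaging probe sets, trend and robust options, array weights, a replicate block, leaving out each array, and an adjusted p of 0.01. Promoter windows came from RefSeq (GRCh38.p14). Figures were drawn with matplotlib 3.10.9.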

Additional observations from a re-analysis of the deposited data

How the results depend on the processing

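The direction of each of the 13 called members was the same under all alternatives run. Of the 13, 7 stayed under an adjusted p of 0.05 in every alternative in which they were tested. In the fit as reported 6 of these 7, all but PLXNA3, were also under 0.01. Across the alternatives only EFNB2 stayed under 0.01 (highest adjusted p 0.0086). The count of members higher, 3, became 1 with dim genes left out, where only 17 of the 47 members were tested, and was 2 to 3 without 1 array. With dim genes left out, 26.6% of all genes tested were higher and 16.4% lower, and 52.9% of the 17 members were lower. The count of members lower, 10, became 5 to 6 without 1 array and 4 at an adjusted p of 0.01. The share of all genes lower also fell, from 7.19% to between 4.66% and 5.77% without 1 array and to 3.51% at 0.01. The member shares there were 10.6% to 12.8% and 8.51%. Receptors past the threshold, 10, became 5 to 7 without 1 array and 4 at an adjusted p of 0.01. Of all genes, 17.0% passed as reported, 10.8% to 12.4% without 1 array and 7.30% at 0.01. The ligand count of 3 was 2 without any 1 array. The difference between the ligand and receptor medians, 0.03, ranged from -0.043 (without shBRG1 replicate 2, a reversed sign) to 0.12 (without shBRG1 replicate 3). The cause was not tested for these, except that fewer samples or genes enter the fits that leave them out. The labels do not say whether the replicate numbers of the titles pair the samples. Deviations of same-numbered arrays from their group means correlated at -0.04, -0.14 and -0.03. Of 3 shBRG1 arrays, 0 correlated best with the NSC array of its own number. So few arrays cannot settle whether samples were handled in pairs. With the replicate block, 5 members were lower, 3 higher and 6 receptors past the threshold, and all genes called fell from 2525 to 1608. The block ended the calls of NRP1 (adjusted p = 0.074), EPHB3 (0.0501), EPHA7 (0.081), UNC5C (0.13) and SLIT3 (0.11), and among the pathway genes named those of PTK2 (0.12), LRIG2 (0.079), CADM1 (0.070) and NRCAM (0.12). The 196 alternative counts of the 7 pathway lists were within 1.5 times the reported count in 131 cases and outside it in 65.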

Other observations

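Transcripts named after guidance genes but not counted among the members gave no call. EPHA5-AS1, which is annotated antisense to EPHA5, was 4.38, 4.13 and 3.99 in NSC and 4.40, 4.56 and 4.55 in shBRG1, so every shBRG1 value was higher (change 0.33, SE 0.11, adjusted p = 0.080 by limma). EPHA5 itself was higher in the same arrays, and whether the probe sets of the pair read the same strand was not examined. UNC5B-AS1 had a change of 0.14 (adjusted p = 0.47), SLIT1-AS1 of -0.25 (adjusted p = 0.28), SLIT2-IT1 of -0.05 (adjusted p = 0.82), EPHA1-AS1 of -0.08 (adjusted p = 0.50) and the UNC5-like gene UNC5CL of 0.01 (adjusted p = 0.98). All 6 were dim in all 6 arrays, at 4.92 or below.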
